A study of Mus musculus with 8 samples.

Results

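The annexins are a family of genes whose proteins bind phospholipid membranes in the presence of calcium. The family members in view were named by gene symbol, 10 in all, because one of them, Anxa8, had been seen to be higher in livers lacking Sco1, and the question was how it compared with its paralogs. A gene was kept where a probe set of the array, which is the group of probes summarised to 1 value, carried that symbol alone, and the probe set of highest mean over the 8 arrays stood for it. This left 9 annexin genes, Anxa1 to Anxa8 and Anxa13, of 22180 genes measured, with 1 probe set each. Anxa11 was not analysed here, since each of the 3 probe sets that list it carries 3 gene symbols.

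Liver RNA of 8 mice of the strain C57BL/6N, taken at 27 days of age, was hybridised to 1 Affymetrix whole-transcript array per mouse. The 4 knockout mice had the genotype Albumin-Cretg/wt:Sco1fl/fl. The albumin promoter drives Cre in hepatocytes, and which liver cells keep Sco1 was not measured. Sco1 encodes a mitochondrial copper chaperone needed to assemble cytochrome c oxidase. The 4 mice labelled wild-type were of 2 kinds by genotype: mice 1 and 3 were Albumin-Cretg/wt:Sco1fl/wt and mice 2 and 4 were Albumin-Crewt/wt:Sco1fl/fl, so every control carried at least 1 floxed allele and 2 of them also Cre. The titles name all 4 as floxed without Cre. The labels give no sex or litter. Sco1 itself stood at 7.59 ± 0.10 log2 units in knockout and 8.00 ± 0.15 in wild-type livers (SD, n = 4 each), with no overlap of the groups (exact permutation test over 70 assignments, two-sided, p = 0.0286, the smallest possible). It missed the threshold over all genes (adjusted p = 0.0633). The hepatocyte genes Alb and Ttr were near the top of the array's range in both groups. Alb averaged 13.85 in knockout and 13.84 in wild-type livers, against a highest value of 13.88 in the whole table. Y-linked genes were lower in knockout mouse 4 than in the other mice, Uty at 7.23 there and at 8.48 to 8.83 elsewhere.

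Annexins share a core of repeats that holds calcium between the protein and acidic phospholipids, and each has its own amino-terminal tail that binds partner proteins. They take part in endosome traffic, exocytosis, membrane repair and the organisation of actin at membranes. Annexin A8, the product of Anxa8, is known from squamous and other epithelia and has been placed on late endosomes, where it has been linked to the tetraspanin CD63. Annexin A5 binds phosphatidylserine and is the protein used to stain dying cells.

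Promoter sequence is shown for 4 members: Anxa8, whose RNA was higher in the knockout, Anxa5, the other member whose groups did not overlap, and Anxa2 and Anxa7, the 2 members whose window held a searched motif. The 250 bases before each RefSeq gene start are given 5′ to 3′ on the gene's strand in build GRCm38.p6, in lower case with motif matches in capitals. The windows are chr14:34085729-34085978 on the plus strand for Anxa8, chr3:36475888-36476137 on the minus strand for Anxa5, chr9:69453433-69453682 on the plus strand for Anxa2 and chr14:20479942-20480191 on the minus strand for 1 of the 2 windows of Anxa7.
Anxa8: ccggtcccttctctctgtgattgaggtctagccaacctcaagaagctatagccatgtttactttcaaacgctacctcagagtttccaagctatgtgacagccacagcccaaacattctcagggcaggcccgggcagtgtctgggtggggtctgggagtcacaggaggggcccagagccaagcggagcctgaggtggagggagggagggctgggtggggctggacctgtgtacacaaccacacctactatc
Anxa5: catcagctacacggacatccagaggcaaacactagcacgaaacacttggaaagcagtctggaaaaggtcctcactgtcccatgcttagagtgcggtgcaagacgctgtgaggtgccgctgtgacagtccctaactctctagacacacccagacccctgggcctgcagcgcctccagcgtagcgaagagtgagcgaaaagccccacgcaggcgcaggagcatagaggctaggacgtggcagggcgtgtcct
Anxa2: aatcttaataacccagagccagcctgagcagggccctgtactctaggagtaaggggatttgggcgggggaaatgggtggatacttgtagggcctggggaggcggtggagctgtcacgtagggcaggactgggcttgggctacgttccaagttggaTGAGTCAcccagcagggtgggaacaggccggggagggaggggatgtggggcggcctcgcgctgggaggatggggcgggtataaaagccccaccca
Anxa7: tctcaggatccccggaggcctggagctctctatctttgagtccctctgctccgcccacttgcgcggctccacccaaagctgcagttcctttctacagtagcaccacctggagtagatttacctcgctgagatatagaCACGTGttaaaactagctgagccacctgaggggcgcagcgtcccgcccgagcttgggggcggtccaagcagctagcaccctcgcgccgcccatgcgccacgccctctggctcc

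Of the 9 members, 6 had an entry in the RefSeq promoter table, Anxa1, Anxa2, Anxa4, Anxa5, Anxa7 and Anxa8, with 8 windows that run from 250 bases before to 50 bases after the start. Both strands were searched for the E-box CACGTG, the core TGATGNAA of the element bound by ATF4, and the AP-1 motif TGANTCA. The Anxa2 window held 1 AP-1 match, TGAGTCA, that begins at base -95 from the gene start, and this Anxa7 window held 1 E-box that begins at base -113. The windows of Anxa8 and Anxa5 held none of the 3 motifs. Of all 27025 genes in the table, 8.09% had a window with the E-box, 4.51% with the ATF4 core and 8.97% with the AP-1 motif. A match is a run of letters and not a measured binding site, and a missing match says only that the letters are not in these windows.

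Anxa8 was measured at 6.86, 6.32, 6.71 and 7.00 log2 units in knockout mice 1 to 4 and at 5.21, 5.57, 5.42 and 5.45 in wild-type mice 1 to 4. The groups did not overlap: the lowest knockout liver, mouse 2, lay above the highest wild-type liver, also a mouse numbered 2. The means were 6.72 ± 0.29 and 5.41 ± 0.15 (SD, n = 4 each), a difference of 1.31 ± 0.14 (SE) with a 95% interval of 1.01 to 1.61, or 2.48-fold with an interval of 2.01 to 3.05. This difference is what put Anxa8 at the head of the family, so it is given as a description without a test. Only 9 genes of the table, Anxa8 included, had a difference this high or higher. The array medians over all probe sets, named or not, lay at 5.79 to 5.89. Anxa8 read below them in wild-type livers and above them in knockout livers. The median of the gene means was higher, at 6.51. Knockout mouse 2 lay below that value, at 6.32, and the other knockout livers above it. The size of the difference is therefore measured from a dim starting level, where background signal can pull a ratio toward 1. In RNA of whole liver, more RNA per cell and more cells of a type that carries Anxa8 cannot be told apart.

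**Figure D1:**
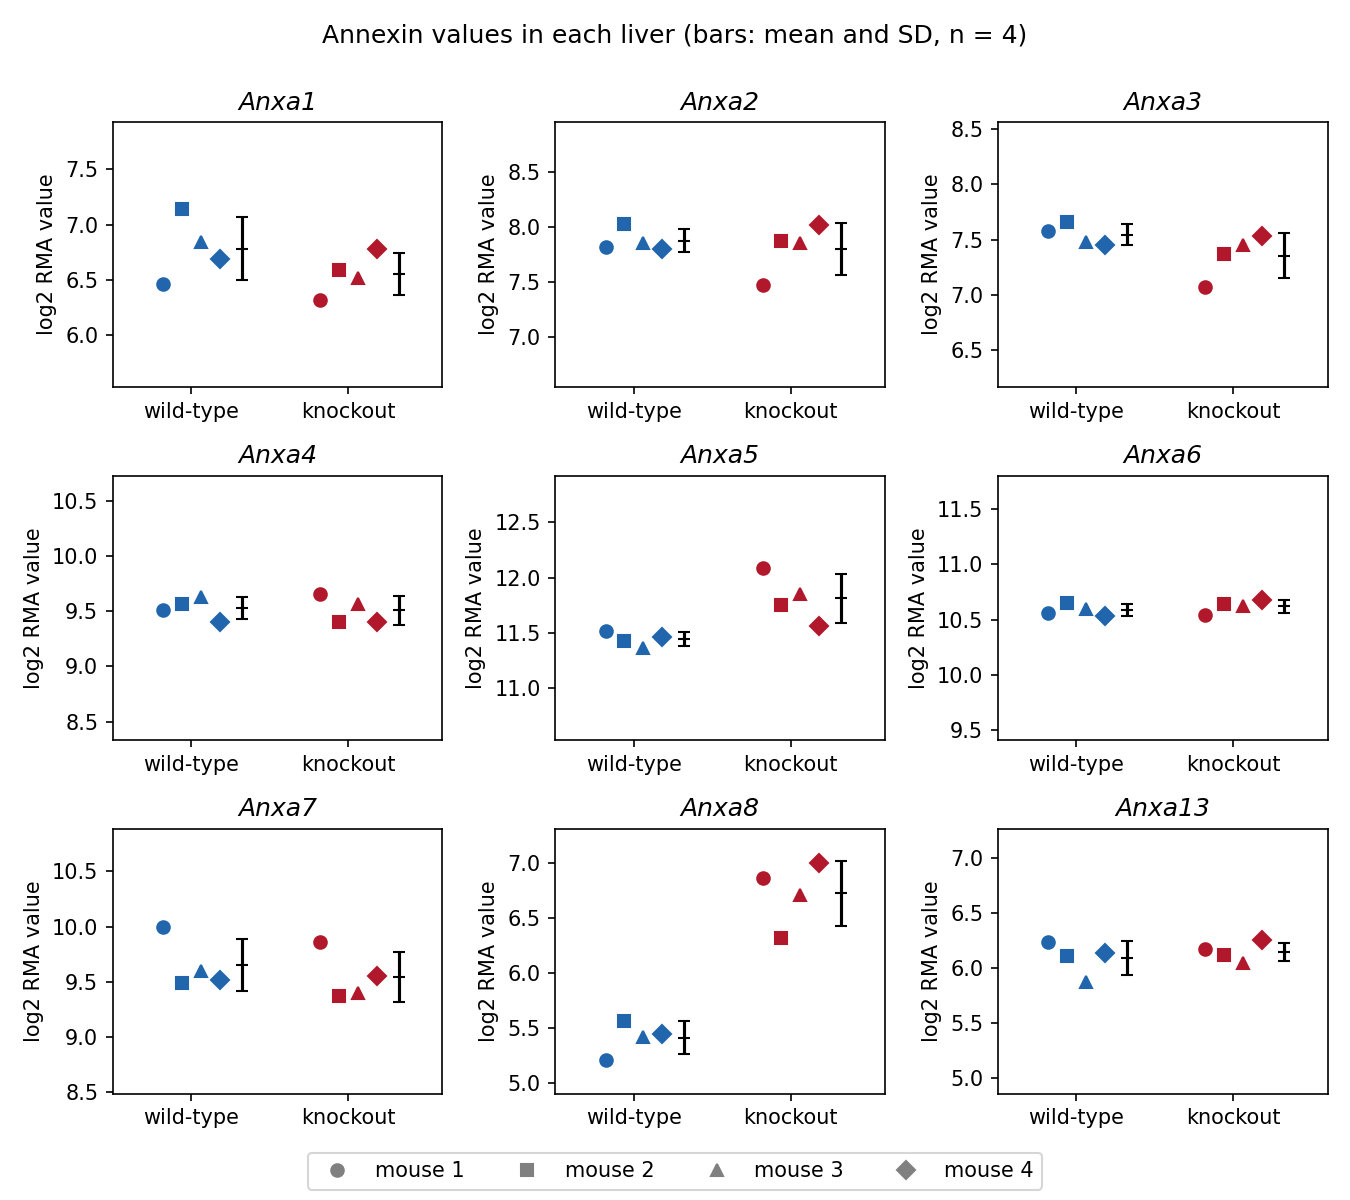
Deposited log2 values of the 9 annexins in each liver, blue for wild-type and red for knockout, with a marker shape for each mouse number and bars for mean and SD (n = 4). Every panel spans the same number of log2 units, so heights can be compared as differences. The 4 knockout livers lie at 6.32 to 7.00 for Anxa8, above all wild-type livers, and the groups overlap for all other members except Anxa5.

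Anxa5 was the other member whose groups did not overlap, among 2384 genes of the table, 10.7%, with that property. Its values were 12.09, 11.75, 11.85 and 11.56 in knockout mice 1 to 4 and 11.52, 11.43, 11.36 and 11.46 in wild-type mice 1 to 4. The gap between the groups was narrow, from 11.52 in wild-type mouse 1 to 11.56 in knockout mouse 4. The difference was 0.37 ± 0.11 (SE), or 1.29-fold with a 95% interval of 1.10 to 1.52. It did not pass the threshold of 0.05 after Benjamini-Hochberg adjustment over the whole table (limma, adjusted p = 0.125, unadjusted p = 0.00527). Nor did it pass under any of 18 alternative settings, with adjusted p from 0.065 to 0.42. The knockout livers also varied more, with an SD of 0.22 against 0.07.

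Over the 9 members, 1 passed the threshold upward, Anxa8, and none downward. Of the 22180 genes, 255 passed, 1.15%, with 0.433% higher and 0.717% lower in the knockout. Because that contrast chose Anxa8, nothing is read from this count. None of the 8 paralogs of Anxa8 passed (limma, adjusted p from 0.125 to 0.924), and 1, Anxa5, had an unadjusted p under 0.05, against 16.7% of all genes. Their differences ran from -0.23 for Anxa1 to 0.37 for Anxa5, 3 positive and 5 negative, with a median of -0.05 beside 0.03 over all genes. The signs split 4 and 4 when a single array was left out, be it that of wild-type mouse 1 or of knockout mouse 1, 2 or 4, and 5 positive to 3 negative against Cre-free controls alone. The median size of a paralog's difference, regardless of sign, was 0.09, and that of all genes 0.11.

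Anxa1, Anxa2 and Anxa3 had negative differences, none of which passed the threshold. Anxa1, whose glucocorticoid-induced protein acts on formyl peptide receptors, read 6.32, 6.59, 6.52 and 6.78 in knockout mice 1 to 4 and 6.46, 7.14, 6.84 and 6.69 in wild-type mice 1 to 4. The groups overlapped widely, with the highest knockout liver above 2 of the wild-type livers, and the difference was -0.23 ± 0.14 (SE, adjusted p = 0.439). Without wild-type mouse 2, the highest of all 8, the Anxa1 difference was -0.11. Anxa2, whose protein pairs with S100a10 and binds plasminogen and its activator, read 7.47, 7.87, 7.85 and 8.02 in knockout and 7.82, 8.03, 7.85 and 7.80 in wild-type livers. Knockout mouse 1 alone lay below the wild-type range. The Anxa2 difference of -0.07 ± 0.11 (adjusted p = 0.775) turned to 0.04 without that mouse. Anxa3 read 7.07, 7.37, 7.45 and 7.53 in knockout and 7.58, 7.66, 7.48 and 7.45 in wild-type livers, a difference of -0.19 ± 0.11 (adjusted p = 0.392). Knockout mouse 1 was again the lowest, and without it the Anxa3 difference was -0.09.

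Anxa4, Anxa6, Anxa7 and Anxa13 did not pass either, with differences between -0.10 and 0.06. Anxa6, whose protein carries a duplicated core and acts in endocytic traffic of lipoproteins and cholesterol, read 10.54, 10.64, 10.62 and 10.68 in knockout and 10.56, 10.65, 10.60 and 10.53 in wild-type livers. All 8 livers lay within a narrow band, and the difference of 0.04 ± 0.07 (SE, adjusted p = 0.823) had a 95% interval of 0.921-fold to 1.14-fold. Anxa4, found in secretory epithelia, read 9.66, 9.40, 9.57 and 9.40 in knockout and 9.51, 9.57, 9.63 and 9.40 in wild-type livers. The Anxa4 groups covered almost the same range, with a difference of -0.02 ± 0.09 (adjusted p = 0.924) and an interval of 0.862-fold to 1.13-fold. Anxa7, or synexin, known for calcium-dependent membrane fusion, read 9.86, 9.37, 9.40 and 9.55 in knockout and 10, 9.49, 9.60 and 9.52 in wild-type livers. Mouse 1 was the highest of its group for Anxa7 on both sides, and the group difference was -0.10 ± 0.14 (adjusted p = 0.732). Anxa13, whose protein can be lipid-anchored and is typical of gut and kidney epithelium, read 6.17, 6.12, 6.05 and 6.25 in knockout and 6.24, 6.11, 5.87 and 6.14 in wild-type livers. Its difference was 0.06 ± 0.09 (adjusted p = 0.777), and its level was near the array medians.

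The upper ends of the paralogs' 95% intervals were 0.60 for Anxa5 and at most 0.26 for the other 7. These are intervals for the difference of the group means, from 4 mice per group and limma's variance estimate, which borrows from all genes. A difference that missed the threshold is not shown to be 0. Set against the mean of the 8 paralogs within each array, Anxa8 lay at -1.78, -2.32, -1.96 and -1.72 in knockout mice 1 to 4 and at -3.50, -3.19, -3.23 and -3.17 in wild-type mice 1 to 4. Each knockout liver was nearer to 0 than each wild-type liver. This relative value was -1.94 ± 0.27 in knockout and -3.27 ± 0.15 in wild-type livers (SD, n = 4 each), a shift of 1.33. The mean of the paralogs itself was 8.67 ± 0.04 in knockout and 8.69 ± 0.06 in wild-type livers. The relative values carry the brightness of different probe sets, so their shift between groups has meaning and their level does not.

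**Figure D2:**
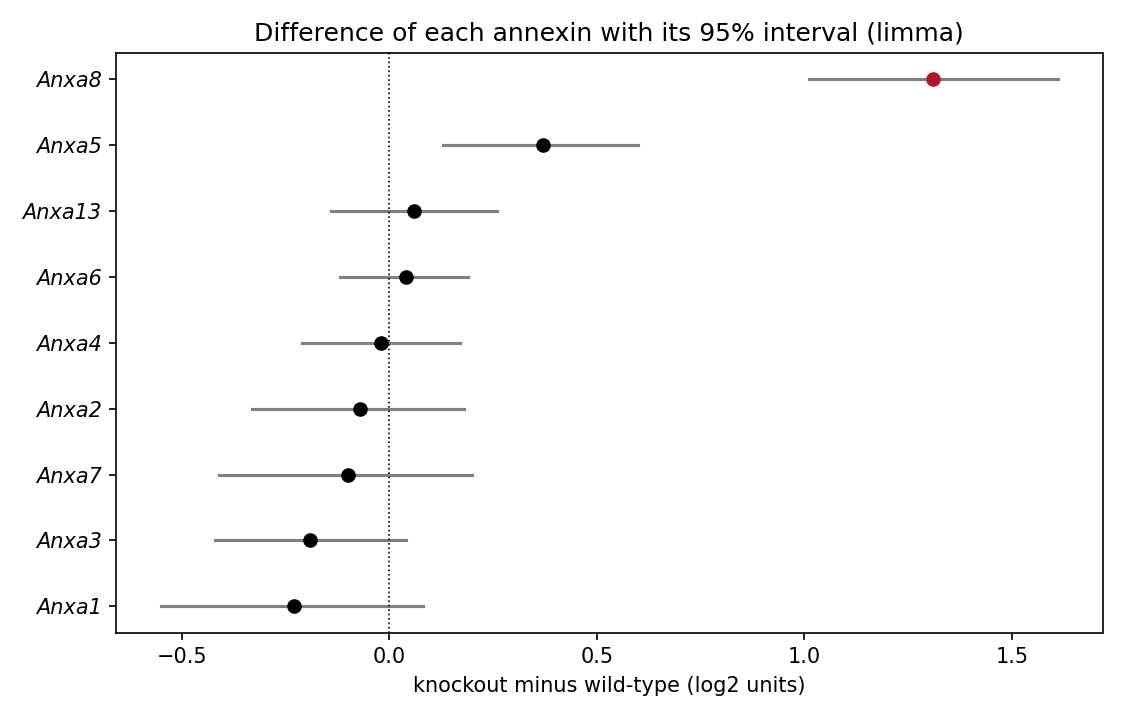
Knockout minus wild-type difference of each annexin in log2 units (point) with the 95% limma interval (line), 4 mice per group, sorted by size, Anxa8 in red. The Anxa5 interval ends at 0.60 and the intervals of the 7 members other than Anxa5 and Anxa8 include 0, while Anxa8 was chosen by this same difference and its place is a description.

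Annexins outside the list were examined as well. Anxa9, whose protein lacks working calcium sites in its core, averaged 6.39 in knockout and 6.42 in wild-type livers, a difference of -0.03 ± 0.07 (SE, adjusted p = 0.879). Anxa10, a gastric epithelial annexin, was dim, at 4.20 and 4.03, with a difference of 0.16 ± 0.13 (adjusted p = 0.566). On the chromosome, the 3 measured genes on each side of Anxa8 in RefSeq GRCm38.p6 are Gm5460, A630023A22Rik and Antxrl on one side and Npy4r, Gprin2 and Syt15 on the other. They were chosen by position after the values were known. None of the 6 passed, with differences from -0.18 for Gm5460 to 0.25 for Gprin2, whose adjusted p was 0.155. Anxa7, which lies on the same chromosome, 14, was described above.

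The 2 kinds of control allow a comparison that played no part in choosing the family. Between controls with Cre and 1 floxed allele (n = 2) and Cre-free controls (n = 2), no member passed, and none had an unadjusted p under 0.05. The kinds differ in Cre and in floxed alleles at once, and the comparison cannot tell these apart. With 2 mice of each kind, a difference that missed the threshold is not shown to be 0. Over all genes 0% passed by limma after adjustment, 0 of 22180, and 671 had an unadjusted p under 0.05, or 3.03%. Anxa8 averaged 5.32 in the controls with Cre and 5.51 in the Cre-free controls, a difference of -0.19 ± 0.19 (SE). The largest differences among the members were 0.30 ± 0.18 for Anxa7 and -0.27 ± 0.19 for Anxa1. Described against each kind of control, Anxa8 in the knockout lay higher by 1.41 ± 0.17 than in the controls with Cre and by 1.21 ± 0.17 than in the Cre-free controls. Anxa5 gave 0.37 ± 0.14 and 0.36 ± 0.14 in the same comparisons. Anxa7 stood at -0.25 ± 0.16 against the controls with Cre and at 0.04 ± 0.16 against the Cre-free controls, since its highest value was that of wild-type mouse 1.

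Single mice stood out across several annexins at once. Among knockout livers, mouse 1 was the lowest for Anxa1, Anxa2, Anxa3 and Anxa6 and the highest for Anxa4, Anxa5 and Anxa7. Knockout mouse 4 was the reverse for many of these, the highest for 6 members, Anxa1, Anxa2, Anxa3, Anxa6, Anxa8 and Anxa13, and the lowest or level with the lowest for Anxa4 and Anxa5. Among wild-type livers, mouse 2 was the highest for 5 members, Anxa1, Anxa2, Anxa3, Anxa6 and Anxa8. Knockout mouse 4 is also the liver with low Y-linked genes. Without it the Anxa8 difference was 1.22 and the Anxa5 difference 0.45.

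Partner genes of the annexins were counted from lists written by function, with results of these data already known. For these and the later lists, the share past the threshold over all genes was 0.433% higher and 0.717% lower. Over all genes the positive sign was the commoner one, with 12628 of 22180 differences at or above that of the phospholipase gene Pla2g4a, 0.0. How often the mean levels of lists do not overlap was not computed. Of 18 S100 and other EF-hand genes, a group that includes binders of annexin tails, none rose and none fell. The list median was 0.07 beside 0.03 over all genes. The smallest adjusted p was that of S100b, 0.152, for a difference of 0.28 ± 0.09 (SE). S100a10, the partner of annexin A2, is named for that role. It read 11.43, 12.20, 11.68 and 12.14 in knockout and 12.14, 12.21, 12.21 and 12.15 in wild-type livers. Knockout mice 1 and 3 lay below the narrow wild-type range and mice 2 and 4 within it or at its edge, and the difference was -0.31 ± 0.15 (adjusted p = 0.324). S100a11, a partner of annexin A1, stood at 0.19 ± 0.11 (adjusted p = 0.392), and its highest value, 9.93, was that of knockout mouse 1. Sorcin, Sri, a partner of annexin A7, differed by -0.05 ± 0.07 (adjusted p = 0.75).

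Among 24 other genes of calcium-dependent membrane binding and membrane repair, such as ferlins and copines, none passed, with a median of 0.06. The copine gene Cpne8 came nearest, from 6.31 ± 0.17 in wild-type to 6.95 ± 0.36 in knockout livers (SD, n = 4 each), a difference of 0.64 ± 0.16 (SE, adjusted p = 0.0799). The repair gene Dysf, encoding dysferlin, differed by -0.01 ± 0.10 (adjusted p = 0.973). Of 18 genes for formyl peptide receptors, phospholipases A2 and eicosanoid enzymes, 1 fell and 17 did not pass, with a list median of 0.12 and 15 positive differences. The mean level of the list was 6.28 to 6.30 in knockout and 6.11 to 6.22 in wild-type livers, without overlap. The highest difference was that of Pla2g12a, a secreted phospholipase A2 named here after its values were seen, at 0.72 ± 0.16 (SE, adjusted p = 0.0624). The gene that fell was Pla2g6, a calcium-independent phospholipase A2. It read 8.52, 8.63, 8.37 and 8.45 in knockout and 8.82, 8.96, 8.83 and 8.95 in wild-type livers, so the groups did not overlap. Pla2g6 fell by 0.40 ± 0.08 (SE, adjusted p = 0.0437), a call that was kept with only 1 of the 8 arrays left out in turn, knockout mouse 2. The adjusted p reached 0.122 without one of the others. The call was also lost with mouse number as a block (adjusted p = 0.0713) and with quantile normalization once more (adjusted p = 0.0837). It was lost with only Cre-free controls (adjusted p = 0.164) and with only controls with Cre (adjusted p = 0.336). Of 18 alternative settings, 7 kept it. None of 7 plasminogen system genes passed, with a median of -0.03. The smallest adjusted p there was 0.26, for the plasmin inhibitor gene Serpinf2 at -0.18 ± 0.08.

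Late endosome genes were counted because annexin A8 has been placed on that compartment. Of 39 measured, 1 rose, none fell and 38 did not pass, with a median of 0.06 beside 0.03 over all genes. Positive differences numbered 27. The mean level of the list was 9.29 to 9.35 in knockout and 9.22 to 9.28 in wild-type livers, without overlap. The gene that rose was Cd63, a tetraspanin of late endosomes and secreted vesicles, by 1.37 ± 0.14 (SE, adjusted p = 0.00253). The Cd63 call was kept with each of the 8 arrays left out in turn. The other tetraspanins Cd9, Cd81 and Cd82 stood at 0.16, 0.04 and 0.13, and the lysosomal membrane genes Lamp1 and Lamp2 at 0.12 and -0.01. Rab7, the GTPase of late endosomes, stood at 0.21 ± 0.08 (adjusted p = 0.203). Besides Cd63, the groups of Rab7 and Lamp1 did not overlap, a property of 10.7% of all genes. These genes are named for their roles.

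Cd63 was also the gene whose pattern over the 8 arrays lay nearest to that of Anxa8. Nearness was measured as the root mean square difference between log2 values, each gene centred on its own mean, over 8 livers, with predicted, RIKEN, microRNA and receptor family symbols left out. For Cd63 it was 0.10 log2 units, where the own spread of Anxa8 about its mean was 0.68 on the same measure. Cd63 read 10.13, 9.68, 9.98 and 10.13 in knockout and 8.22, 8.83, 8.62 and 8.77 in wild-type livers. As with Anxa8, mouse 2 was the lowest knockout liver, and in the wild-type group mouse 1 was the lowest and mouse 2 the highest.

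The next in order were Rragd at 0.16, which encodes a GTPase of the lysosomal nutrient-sensing machinery, Gpnmb at 0.17, a glycoprotein gene of lysosome-rich cells such as macrophages, and Cln6 at 0.25, which encodes an endoplasmic reticulum protein needed by lysosomes. Rragd read 7.59, 6.90, 7.58 and 7.94 in knockout and 6.14, 6.16, 6.21 and 5.93 in wild-type livers. Gpnmb read 7.00, 6.40, 6.64 and 6.76 in knockout and 5.54, 5.57, 5.51 and 5.25 in wild-type livers. Psat1 of serine synthesis lay at 0.28, the phospho-lyase gene Etnppl at 0.29, the interferon-induced Irf7 at 0.31 and the tubulin gene Tuba8 at 0.31. Mouse 2 was the lowest knockout liver for Anxa8 and for each of the nearest genes except Etnppl, where mouse 4 was. The wild-type order differed from gene to gene. All 8 of these genes are among those that passed the threshold in the knockout, which nearness to Anxa8 favours, so the measure describes likeness and tests nothing. The Psat1 call was kept with only 2 of the 8 arrays left out in turn, knockout mice 2 and 4, and its adjusted p reached 0.0845 without one of the others. With only Cre-free controls in the fit, the calls of Psat1, Rragd and Irf7 were lost. With only controls with Cre, those of Psat1, Rragd, Irf7, Cln6 and Gpnmb were lost. The adjusted p of these lost calls ran from 0.0521 to 0.214 (limma). Anxa8 itself passed in neither of these fits (limma, adjusted p = 0.0555 and 0.0521). With all 8 arrays fitted in 3 groups, its adjusted p was 0.0284 against Cre-free controls and 0.0298 against controls with Cre (limma). The nearest paralog by root mean square difference was Anxa5 at 0.54, and the other paralogs lay at 0.66 to 0.80. Nearer than Anxa5 were 479 genes, a count that includes the symbols left out above. In the promoter windows of these 8 genes, the E-box was found for 1, Tuba8, the AP-1 motif for 1, Gpnmb, and the ATF4 core for none.

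**Figure D3:**
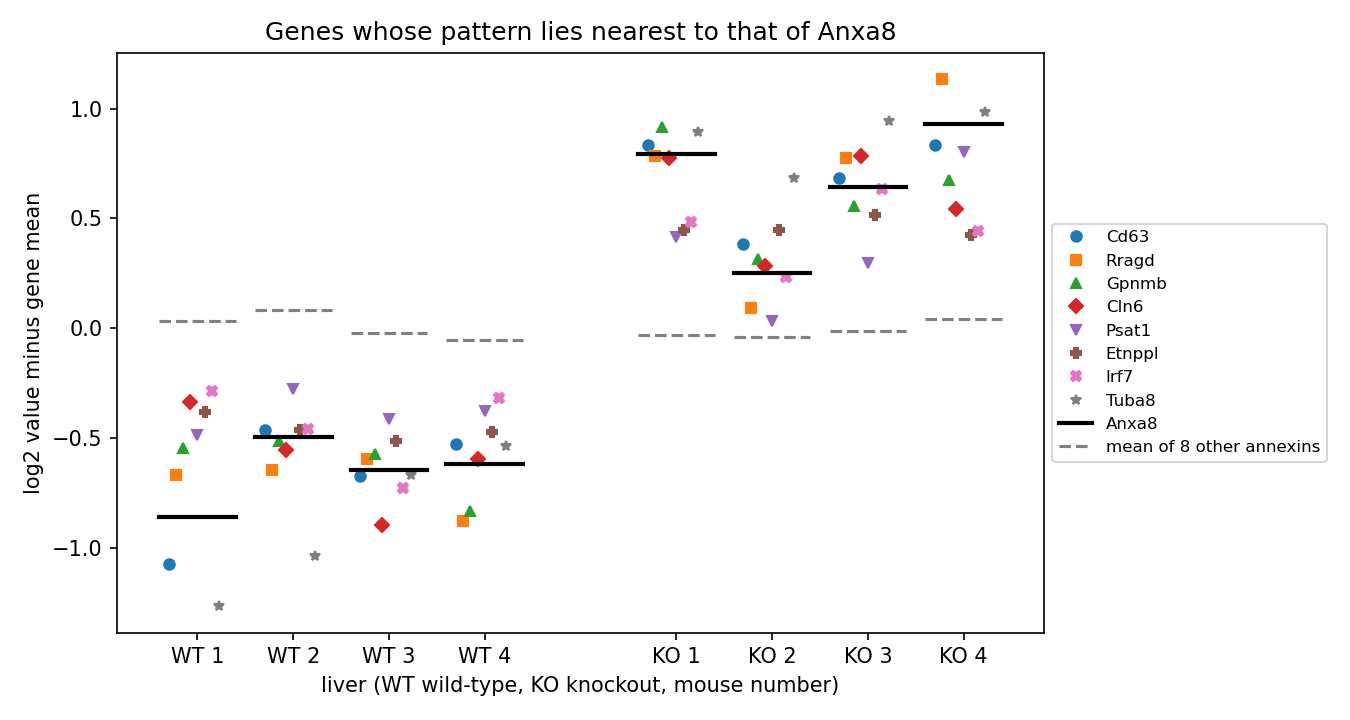
Log2 value minus the gene's own mean in each liver for the 8 genes nearest to Anxa8 (symbols), with Anxa8 as a black bar and the mean of the 8 other annexins as a dashed bar. Cd63, the nearest at a root mean square difference of 0.10, follows the black bar in both groups, while the dashed bars stay near 0.

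Markers of other liver and epithelial cells were examined because annexins differ between cell types. Of 11 measured squamous epithelial markers, the cells with which Anxa8 is most often linked, 1 rose, none fell and 10 did not pass, with a median of 0.09. The marker that rose was the keratin gene Krt15, by 0.44 ± 0.09 (SE, adjusted p = 0.0437), and was dim, with means of 5.47 and 5.03 in the knockout and the control group. The Krt15 call was lost with any 1 array left out (adjusted p from 0.0516 to 0.123) and with mouse number as a block (adjusted p = 0.0653). It was also lost with quantile normalization once more (adjusted p = 0.0674). With only Cre-free controls its adjusted p was 0.299, and with only controls with Cre 0.152. Of 17 alternative settings, 5 kept it. The mean level of the squamous list was 5.61 to 5.63 in knockout and 5.46 to 5.60 in wild-type livers, adjacent but not overlapping, and the defining keratin Krt14 stood at -0.06 ± 0.08 (adjusted p = 0.743).

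None of 10 cholangiocyte markers passed, with a median of 0.03 and a mean level of 5.87 to 6.08 in knockout and 5.96 to 6.09 in wild-type livers. Krt7 and Krt19, the keratins of bile ducts, stood at -0.05 ± 0.14 and 0.12 ± 0.08 (SE). The largest differences of the list, named after their values were seen, were those of the progenitor marker Prom1, at -0.85 ± 0.23 (adjusted p = 0.104), and of the transcription factor gene Sox9, at -0.29 ± 0.13 (adjusted p = 0.279). The mesothelial list, with none of 8 past the threshold, averaged 8.08 to 8.22 in knockout and 7.80 to 8.50 in wild-type livers, where mouse 1 was the lowest. Of 16 Kupffer cell and macrophage markers 1 rose, Gpnmb, and 15 did not pass. Their median was 0.16, beside 0.03 over all genes, with 15 positive differences. Their mean level ranged from 8.74 to 9.12 in knockout and from 8.53 to 8.92 in wild-type livers, highest in knockout mouse 4, which was also the highest for Anxa8. The other knockout livers did not keep that order. Macrophage markers were lowest in knockout mouse 1, at 8.74, where Anxa8 was 6.86. In knockout mouse 2, the lowest knockout liver for Anxa8 at 6.32, they stood at 8.88. Lymphocyte markers, none of 11 past the threshold, averaged 6.24 to 6.47 in knockout and 6.05 to 6.16 in wild-type livers, again highest in knockout mouse 4. All 11 lymphocyte differences were positive, the commoner sign over all genes. The part of these cell types in the Anxa8 and Anxa5 differences was not tested.

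None of 11 neutrophil, 12 stellate cell, 12 endothelial, 5 platelet, 8 skeletal muscle, 2 erythroid or 10 hepatocyte markers passed, with list medians of 0.13, -0.10, 0.07, 0.07, 0.19, -0.06 and -0.02. The muscle list was higher in every knockout liver, at 5.75 to 5.97, than in any wild-type liver, at 5.58 to 5.72. All 8 of its differences were positive, the commoner sign over all genes. The hepatocyte list averaged 12.61 to 12.68 in knockout and 12.70 to 12.72 in wild-type livers, a small shift at the top of the array's range, where differences are compressed.

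**Figure D4:**
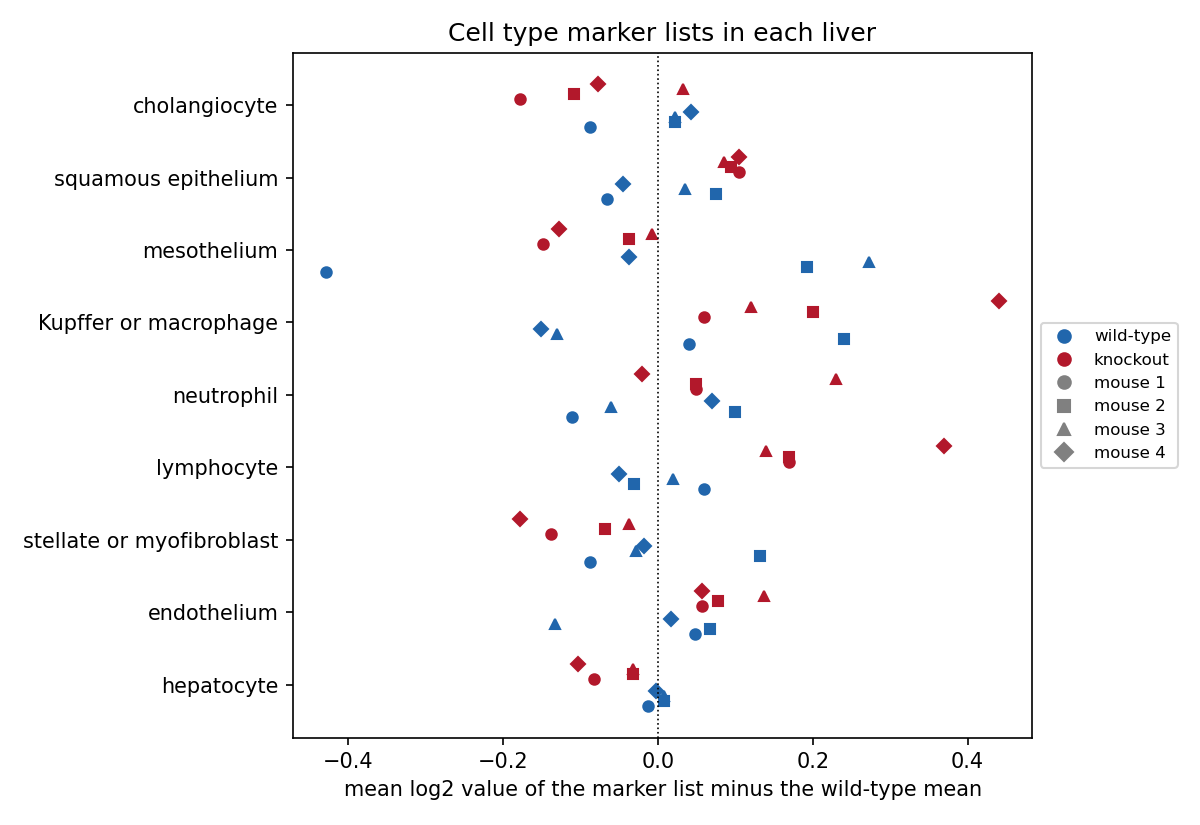
Mean log2 value of 9 cell type marker lists in each liver, set against the wild-type mean of that list, blue for wild-type and red for knockout, with a marker shape for each mouse number. Knockout mouse 4 lies farthest to the right for macrophage and lymphocyte markers, and the knockout and wild-type livers overlap for cholangiocyte markers.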

How the data were processed

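Total RNA of 8 livers was measured on 1 array each. The deposited log2 values are, per the submitters' processing notes, RMA values from oligo, an R package, version 1.24. RMA corrects background, quantile-normalizes the arrays and summarises probe sets, and it compresses large differences. No label states the log scale, which was inferred from RMA and from the range of 1.28 to 13.88. The chip definition and genome build are not given in the sources used here. Of 39137 probe sets, 23521 had 1 gene symbol in the platform annotation, 1814 several and 13802 none. The brightest probe set stood for each of 22180 genes.

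Knockout minus wild-type was fitted with lmFit and eBayes of limma (version 3.58.1, run under R 4.3.3), two-sided with group as the only term, on all 8 arrays, with Benjamini-Hochberg adjustment over all genes and a threshold of 0.05. A fit with 3 groups compared the control kinds. Errors are SDs over 4 mice or limma standard errors, and the number of arrays limits the precision. The labels do not say whether mice shared a litter. Members and lists were chosen with earlier results of these data known. Genes named are the 10 listed annexins, other annexins, Sco1, up to 4 members past the threshold per partner list (or the 1 of smallest adjusted p), markers past the threshold or the 2 listed first, and the 8 genes nearest to Anxa8. Others are named for their role or position. The planned comparison of Anxa8 with 9 paralogs used the 8 that were measured. Python version 3.11.15, pandas version 2.3.3 and matplotlib version 3.10.9 were used for tables and plots.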

Additional observations from a re-analysis of the deposited data

Results flagged for a closer look

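Among 104 groups of 4 livers examined, 52 genes or relative values in 2 groups each, 4 had 1 liver far from the other 3, by a gap over 0.829 of the group's range, which chance gives for about 1 group in 20. None was an annexin. Wild-type mouse 4 was low for Gpnmb, at 5.25 against 5.51 to 5.57 (gap 0.829 of the range), and for Serpinf2, at 13.05 against 13.13 to 13.14 (0.877). Knockout mouse 3 was high for Cdh5, at 10.97 against 10.88 to 10.89 (0.95), and for Ttr, at 13.69 against 13.64 (0.918).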

How the results depend on the processing

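The Anxa8 difference was positive under all 17 alternatives that kept the gene, at 1.21 to 1.44, and dropped out of the fit when only genes brighter than the median gene were tested. It was 1.21 against Cre-free controls and 1.41 against controls with Cre, and these values are a description too. In neither of these fits, each without the other controls, did Anxa8 pass the threshold (limma, adjusted p = 0.0555 and 0.0521). With all 8 arrays fitted in 3 groups, it was under the threshold against both kinds (limma, adjusted p = 0.0284 and 0.0298). Since this difference chose Anxa8, nothing is read from either result. Relative to its paralogs the shift was 1.24 to 1.45 over 14 alternatives. No paralog passed in any of 143 fitted values, and 10 of the values, before rounding, had the opposite sign, for Anxa2, Anxa4, Anxa7 and Anxa13, none above 0.04 in size. Counts of genes past the threshold moved more than the annexins did. Against 96 higher and 159 lower genes, there were 7 and 9 against Cre-free controls, 4 and 2 against controls with Cre, each fitted without the other controls, 60 and 230 with arrays centred on their medians, 159 and 300 with a trended robust variance, 131 and 245 with array weights, and 123 and 319 among genes brighter than the median gene. In the fit of all 8 arrays in 3 groups, 47 genes passed against Cre-free controls and 29 against controls with Cre, in either direction. With 1 array left out the knockout against wild-type counts ranged from 29 to 65 higher and from 60 to 119 lower. With mouse number as a replicate block they were 68 and 142, and Anxa8 differed by 1.31. Mice with the same number deviated from their group means with correlations across genes of 0.273, -0.0217, 0.0308 and -0.102, and only for mouse 1 did both livers match their own number best, so the numbers were not taken as pairs. No background level was estimated. Anxa8 and Anxa13 were brighter than 41.9% and 42.9% of genes, and a dim signal can limit what they show. The top of the range limits what hepatocyte genes can show.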
